A study of Saccharomyces cerevisiae with 24 samples.

Results

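Mitochondrial ribosomal proteins are the proteins that, together with 2 ribosomal RNAs made in the mitochondrion, form the ribosome of that organelle in budding yeast, Saccharomyces cerevisiae. The genes described here are those whose annotated symbol begins with MRPL, MRPS or RSM and a digit, or MRP and a digit, and they number 66 of the 5449 S. cerevisiae genes measured. Of these, 37 encode proteins of the large subunit and 28 proteins of the small subunit. The remaining gene, MRP8, was named as a member of this family but its product is not a ribosomal protein, so summaries below are given for the other 65 where stated. By the current uniform naming of ribosomal proteins, which covers 64 of the 65, 40 have a counterpart in the bacterial ribosome. The 25 taken as having none include RSM22, which has no uniform name and is counted with the small subunit. Each of the 66 genes was read by 1 probe set, and none had a mean below the dim level of 5.59 (log2). No gene was left out of the reported fit for a low level, and all 66 entered every comparison.

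The mitochondrial ribosome descends from that of a bacterium and translates the few messages of mitochondrial DNA, most of which encode membrane subunits of the respiratory chain and of the ATP synthase. In yeast all but one of its proteins are encoded in the nucleus, made in the cytosol and imported. Their genes are known for rising and falling together with the need for respiration, and many of their messages carry a site for the RNA-binding protein Puf3. The kinase Snf1 is budding yeast's form of AMP-activated protein kinase, and loss of its catalytic subunit keeps many genes under glucose repression.

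Total RNA was measured on 24 Affymetrix arrays of cells from steady-state chemostats on minimal medium, to follow the response to inositol and choline and to loss of SNF1 under 2 limiting nutrients. The 8 groups of 3 arrays are the reference strain and the snf1 mutant, each under carbon (C) or nitrogen (N) limitation, each at a low or a high level of inositol and choline; the sources used here give neither the amounts meant by low and high, nor the strain background, nor the dilution rate. The labels do not say whether replicates were separate cultures, so p-values cover the spread among these arrays alone, part or all of which may be technical, and the number of arrays limits the precision. Values are the deposited log2 expression values, and the number after ± is the standard error that limma gives a log2 difference, with n = 3 arrays in each group. A gene was called when its Benjamini-Hochberg adjusted p over all 5449 genes was under 0.05.

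SNF1 lay at 4.95 to 5.02 on the 12 arrays of the mutant and at 7.09 to 8.47 on the 12 reference arrays. The titles of 6 snf1 arrays say N while their descriptions say C limitation. They were taken as N-limited, and DAL5, an allantoate permease gene repressed by good nitrogen sources, lay at 10.85 to 11.72 on them against 6.83 to 7.13 on the C-limited arrays. The difference between 3' and 5' probe sets of 8 control genes, a measure of RNA integrity and labelling length, was 0.63 to 0.84 on the low-level arrays and 0.83 to 2.66 on the high-level arrays. In N-limited cells at the high level, replicate 1 of either strain stood apart, at 2.66 in the reference and 2.63 in snf1. For each array, the SD over the members of its deviations from the group mean was taken. This SD was 0.12 to 0.30 in their 2 groups, against 0.026 to 0.061 in the other 6 groups. All groups share 1 estimate of the spread per gene in the fit, which is therefore wide for those 6 groups and narrow for these 2.

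The median over the 66 genes was taken on each array. In C-limited snf1 cells it was 8.60, 8.61 and 8.66 at the low level and 8.61, 8.59 and 8.61 at the high level. In the C-limited reference it was 8.22, 8.30 and 8.37 at the low level and 8.12, 8.12 and 8.15 at the high level. Under N limitation it was 7.98, 7.93 and 7.98 in the reference and 7.98, 7.97 and 7.95 in snf1 at the low level. At the high level it was 8.18, 8.02 and 7.93 in the N-limited reference and 8.01, 7.87 and 7.88 in snf1. The 6 C-limited snf1 arrays were thus the highest, above every C-limited reference array, and the 12 N-limited arrays overlapped between strains at each level. For the small subunit alone, the N-limited low-level medians were 7.86 to 7.89 in snf1 and 7.91 to 7.97 in the reference, which do not overlap. The 128 genes of the cytosolic ribosome, which makes the bulk of cellular protein, had group means of their array medians between 10.76 and 10.89.

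**Figure D1:**
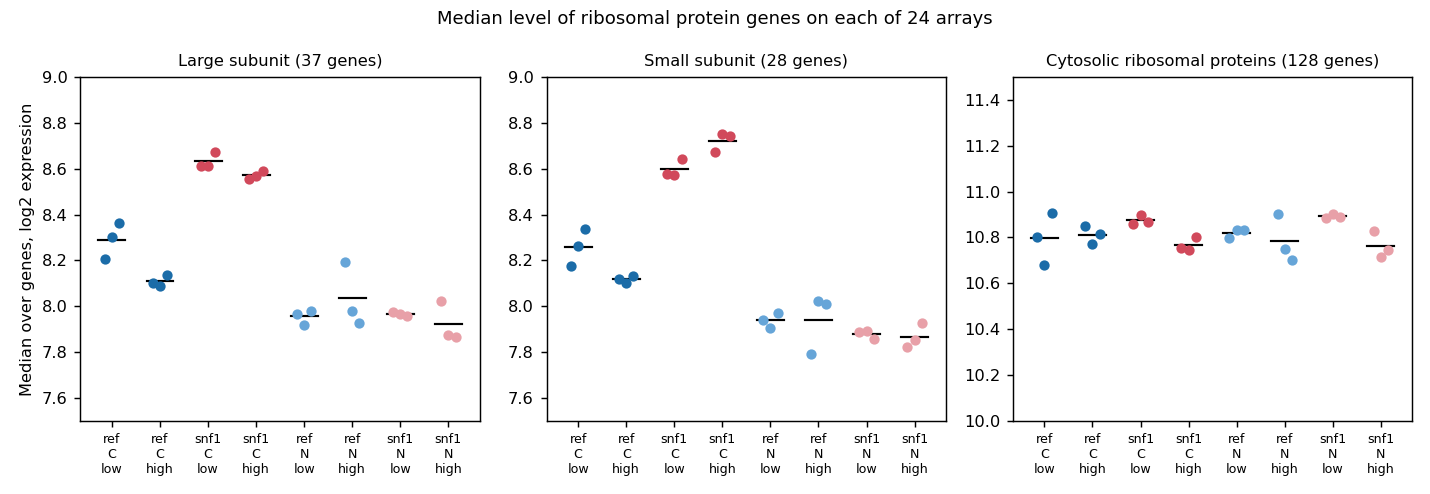
Median log2 expression on each of the 24 arrays of the large subunit genes (37), the small subunit genes (28) and the cytosolic ribosomal protein genes (128), by group of strain, limitation and inositol-choline level; each point is an array and each line the mean of 3. The C-limited snf1 arrays lie above all others in both mitochondrial panels, while the cytosolic group means stay between 10.76 and 10.89.

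In C-limited cells, genes of both ribosomal subunits were higher in snf1 than in the reference. At the low level 40 of 66 were called higher, against 20.2% of all genes, and 1 was called lower, against 14.3% of all genes. Arrays of the high level gave 46 called higher, against 18% of all genes, and 1 lower, against 14.8%. The gene called lower was MRP8 at both levels. Without MRP8 the median difference was 0.32 at the low level and 0.39 at the high level, or 1.25-fold and 1.31-fold, while the median over all genes was 0.05 and 0.03. At either level 63 of the 65 had a positive difference. The 2 levels use separate arrays of both strains but 1 estimate of the spread per gene. How many of all genes were called higher at both was not counted. Of the members, 37 were, which is 92.5% of the 40 and 80.4% of the 46. Those called at the low level alone were MRPL49, MRPL51 and RSM24. The 3' minus 5' difference was 0.68 to 0.76 in snf1 and 0.63 to 0.69 in the reference at the low level, and 1.06 to 1.16 against 0.83 to 0.90 at the high level; its part in these differences was not tested.

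Of the large subunit, 26 of 37 genes were called higher at the low level and 29 at the high level. MRPL13 encodes a large subunit protein with no bacterial counterpart. Its values were 8.07, 8.13 and 8.25 in the reference and 8.61, 8.61 and 8.56 in snf1 at the low level, and 7.95, 8.04 and 8.08 against 8.61, 8.58 and 8.59 at the high level. The arrays of the strains did not overlap at either level, and the snf1 mean was higher by 0.44 ± 0.049 (adjusted p = 5.94e-07) and by 0.57 ± 0.049 (adjusted p = 1.69e-08). Over all genes, 39.8% at the low level and 37.4% at the high level had every snf1 array above every reference array. MRP49, also a protein with no bacterial counterpart, read 8.47, 8.51 and 8.56 in the reference and 8.85, 8.86 and 8.89 in snf1 at the low level. It was higher in snf1 by 0.36 ± 0.045 (adjusted p = 2.98e-06), and at the high level by 0.42 ± 0.045 (adjusted p = 2.81e-07). MRPL10, the counterpart of bacterial L15, was higher by 0.47 ± 0.058 at the high level (adjusted p = 2.21e-06). The widest difference in the large subunit at the high level was that of MRPL35, another protein with no bacterial counterpart, which read 7.71, 7.75 and 7.77 in the reference and 8.62, 8.69 and 8.65 in snf1, a difference of 0.91 ± 0.182 (adjusted p = 0.000555). MRP20, the counterpart of bacterial L23 at the exit of the peptide tunnel, was not called at either level, with differences of -0.09 ± 0.069 and -0.02 ± 0.069.

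Of the small subunit, 14 of 28 genes were called higher at the low level and 17 at the high level. RSM23, related to the human protein DAP3, read 7.49, 7.57 and 7.70 in the reference and 8.07, 8.17 and 8.10 in snf1 at the low level. The arrays did not overlap, with snf1 above as in 39.8% of all genes. The RSM23 difference of 0.53 ± 0.056 (adjusted p = 3.11e-07) had the smallest adjusted p of any member there. MRPS28, the counterpart of bacterial S15, read 8.12, 8.28 and 8.24 against 8.45, 8.31 and 8.51 at the low level, a difference of 0.21 ± 0.071 (adjusted p = 0.0269). Its high-level values were 7.95, 7.90 and 8.07 against 8.62, 8.72 and 8.72, an MRPS28 difference of 0.72 ± 0.071 (adjusted p = 1.21e-07). MRP1, which is related in sequence to iron and manganese superoxide dismutases, read 8.12, 8.12 and 8.30 in the reference and 8.78, 8.78 and 8.75 in snf1 at the low level. MRP1 at the high level read 8.19, 8.15 and 8.26 against 9.33, 9.18 and 9.27, and the difference of 1.06 ± 0.135 (adjusted p = 3.37e-06) was the widest among the 66 genes. MRPS8, the counterpart of bacterial S8, was higher by 0.36 ± 0.056 at the low level (adjusted p = 3.85e-05). MRP10, a small subunit protein with the paired cysteines of proteins imported by the Mia40 pathway, was higher by 0.55 ± 0.157 and 0.60 ± 0.157 (adjusted p = 0.00998 and 0.00566).

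The median difference was 0.32 for large and 0.31 for small subunit genes at the low level, and 0.42 and 0.34 at the high level. For genes with a bacterial counterpart it was 0.29 and 0.32, and for those without 0.38 and 0.45. Genes without a counterpart were called in 18 and 19 of 25 cases and those with one in 22 and 27 of 40; the difference between the classes was not tested. MRP8 ran the other way. It read 10.60, 10.55 and 10.42 in the reference and 9.71, 9.83 and 9.78 in snf1 at the low level, and 10.24, 10.23 and 10.23 against 9.60, 9.55 and 9.55 at the high level. Its snf1 arrays all lay below its reference arrays, by -0.75 ± 0.088 (adjusted p = 1.23e-06) and -0.67 ± 0.088 (adjusted p = 5.06e-06). Over all genes, 24.2% at the low level and 27.4% at the high level had every snf1 array below.

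**Figure D2:**
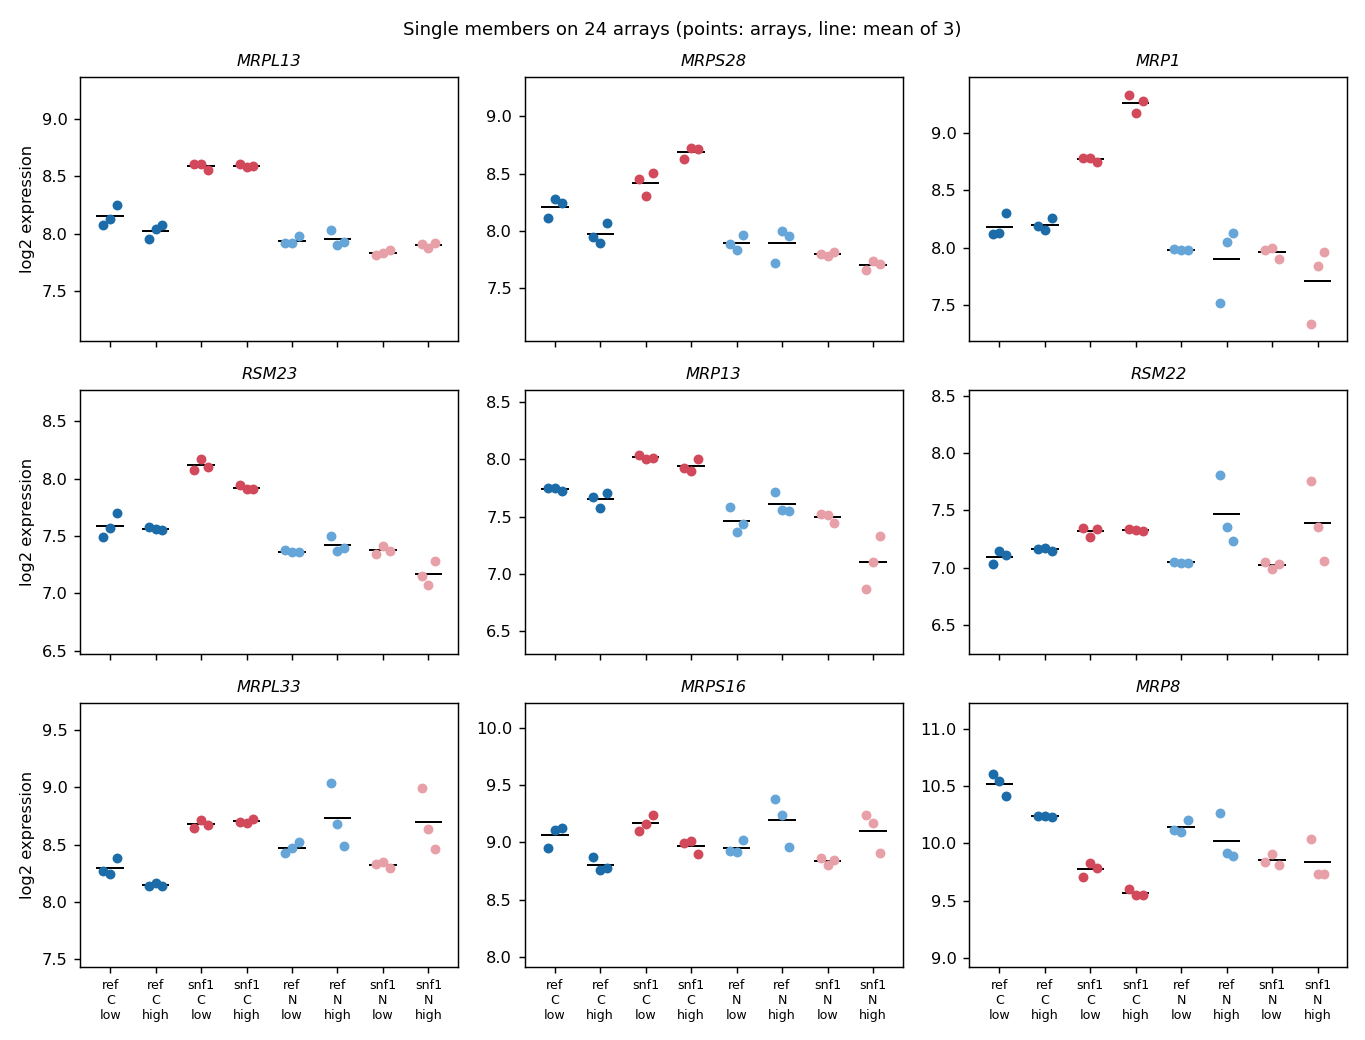
log2 expression of 9 genes on all 24 arrays (points: arrays, line: mean of 3; each panel spans the same log2 range). MRPL13, MRPS28, MRP1, RSM23 and MRP13 are highest in C-limited snf1 cells, RSM22, MRPL33 and MRPS16 follow other patterns, and MRP8 is highest in the C-limited reference at the low level, at 10.52.

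Under N limitation few of these genes differed between the strains. At the low level MRP8 alone was called lower, by -0.29 ± 0.088 (adjusted p = 0.0444), against 5.01% of all genes, and none was called higher, against 4.72%. The median without MRP8 was -0.05, and with limma 5 of the 66 had an unadjusted p under 0.05. The share of all genes under that unadjusted threshold was not taken. With the replicate number as a block in a fit of these 6 arrays alone, 3 genes were called higher and 23 lower, against 51.0% of all genes called in either direction. In high-level cells 6 (9.09%) were called lower, against 1.98% of all genes, and none higher, against 2.17%. The median was -0.15 and 60 of the 65 differences were negative. The blocked fit called 4 lower there, against 1.8% of all genes. Without the 2 arrays of lowest 5' signal 18 were lower, against 9.67% of all genes called in either direction.

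The 6 called lower in N-limited snf1 at the high level were MRP13, MRPL6, RSM23, MRPS9, MRPL9 and MRP49. That count ranged from 2 to 14 when arrays were left out in turn, with 14 without replicate 1 of the reference, 13 without replicate 1 of snf1 and 2 without replicate 2 of snf1. A fit of the 6 arrays alone called none of the 66, and 0.0918% of all genes. MRP13, a small subunit protein with no bacterial counterpart, read 7.71, 7.56 and 7.55 in the reference and 6.87, 7.10 and 7.33 in snf1. The arrays did not overlap and MRP13 was lower in snf1 by -0.51 ± 0.083 (adjusted p = 0.000981). Non-overlap in that direction held for 3.96% of all genes. At the low level MRP13 read 7.58, 7.36 and 7.44 against 7.52, 7.51 and 7.45, which overlap. MRPL6, the counterpart of bacterial L6, read 7.57, 7.46 and 7.36 in the reference and 7.18, 7.12 and 7.14 in snf1 at the high level, a difference of -0.31 ± 0.060 (adjusted p = 0.00403). MRPS9, the counterpart of bacterial S9, was lower by -0.28 ± 0.063 (adjusted p = 0.0136), and RSM23 by -0.25 ± 0.056 (adjusted p = 0.0125).

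Comparison of N with C limitation within a strain showed lower levels under N limitation, in more genes and by more in snf1. In the reference at the low level 35 of 66 were called lower, against 19.1% of all genes, and none higher, against 25.1%. At the high level 20 were called lower, against 20.9% of all genes, a share of the members of 30.3%, and 5 higher, against 31.4%. In snf1 63 were called lower at the low level, against 15.3% of all genes, and none higher, against 15.3%. In the same strain 56 were lower at the high level, against 22.1%, and 1 higher, MRP8, against 26.5%. Without MRP8 the median difference in the reference was -0.29 at the low level and -0.09 at the high level, and in snf1 it was -0.66 and -0.64, which is 1.58-fold and 1.55-fold lower. The 2 limitations were compared on separate arrays in each strain, and 34 genes were called lower in both strains at the low level, 97.1% of the 35 and 54.0% of the 63. All 20 of the reference at the high level were among the 56 of snf1, which is 35.7% of the latter. The share of all genes called lower in both strains was not taken, and the calls in both strains use 1 estimate of the spread per gene.

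In the reference, MRP20 had the widest fall at the low level. It read 8.28, 8.32 and 8.34 under C limitation and 7.63, 7.61 and 7.73 under N limitation, a difference of -0.66 ± 0.069 (adjusted p = 1.57e-07). MRP20 thus differed between nutrients with no overlap, as did 29.7% of all genes in that direction. However, MRP20 was not called between strains in either nutrient. MRPL15, a large subunit protein with no bacterial counterpart, read 7.92, 7.91 and 8.08 under C and 7.53, 7.48 and 7.39 under N limitation, a difference of -0.50 ± 0.056 (adjusted p = 3.54e-07). MRPL49, the counterpart of bacterial L21, was lower by -0.48 ± 0.054 at the low level and by -0.46 ± 0.054 at the high level (adjusted p = 4.38e-07 and 7.78e-07). The 5 genes higher under N limitation in the reference at the high level were MRPL33, MRPS16, MRP49, MRPL3 and MRPL44. MRPL33, the counterpart of bacterial L30, read 8.14, 8.17 and 8.14 under C and 9.04, 8.69 and 8.49 under N limitation, a difference of 0.59 ± 0.112 (adjusted p = 0.000219). MRPS16, the counterpart of bacterial S16, read 8.87, 8.76 and 8.77 against 9.38, 9.24 and 8.96, a difference of 0.39 ± 0.091 (adjusted p = 0.00131). In both genes the highest N-limited value came from replicate 1, one of the arrays of lowest 5' signal, and without these arrays 3 members were called higher and 32 lower. The shares of all genes called in that fit are not given here.

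In snf1 the falls under N limitation covered both subunits alike, with 36 of 37 large and 27 of 28 small subunit genes at the low level and 32 and 24 at the high level. MRPL13 read 8.61, 8.61 and 8.56 under C and 7.82, 7.83 and 7.86 under N limitation at the low level. No array of MRPL13 overlapped, as for 29.8% of all genes in that direction, and the difference was -0.76 ± 0.049 (adjusted p = 3.35e-10). MRPL4, the counterpart of bacterial L29, read 8.51, 8.50 and 8.41 under C and 7.32, 7.32 and 7.30 under N limitation, and its difference of -1.16 ± 0.094 (adjusted p = 8.78e-09) was the widest of the 66 genes at the low level. At the high level MRPL15 read 8.35, 8.36 and 8.29 under C and 7.33, 7.26 and 7.31 under N limitation, a difference of -1.04 ± 0.056 (adjusted p = 1.6e-11). MRPL9, the counterpart of bacterial L3, was lower by -0.65 ± 0.047 at the low level and by -0.78 ± 0.047 at the high level (adjusted p = 1.9e-09 and 9.84e-11). The widest difference at the high level was that of MRP1, which read 9.33, 9.18 and 9.27 under C and 7.34, 7.84 and 7.96 under N limitation, -1.55 ± 0.135 (adjusted p = 1.6e-08). Its lowest value was on replicate 1, the array of low 5' signal, and the other arrays were also below every C-limited array. In 25.1% of all genes the N-limited arrays lay below every C-limited array there. Under the low level the genes not called in snf1 were MRPL36, RSM22 and MRP8. Blocking on replicate number, in a fit of the compared arrays alone, gave 65 genes called lower, against 28.7% of all genes.

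**Figure D3:**
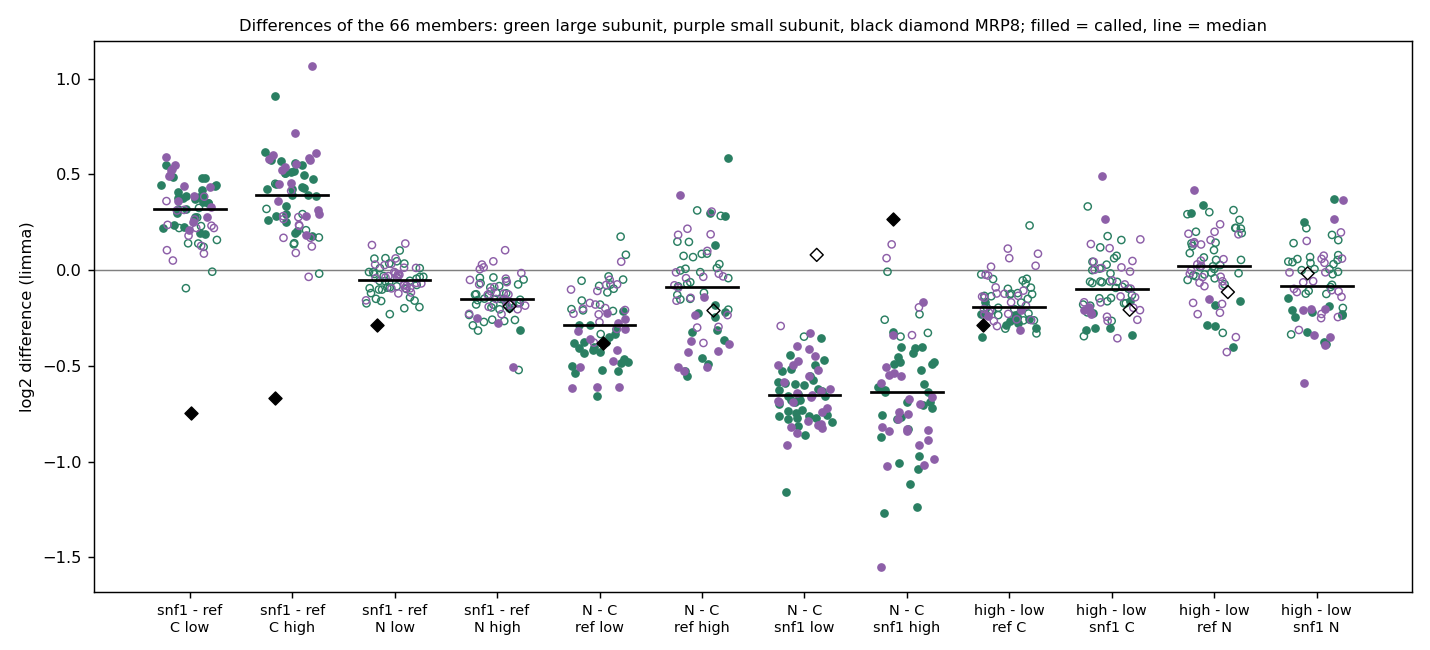
log2 differences of the 66 genes in each comparison, as fitted with limma (green: large subunit, purple: small subunit, black diamond: MRP8; filled symbols were called, the line is the median). Differences of snf1 from reference lie mostly above 0 under C limitation and close to 0 under N limitation, and N minus C differences lie lowest in snf1.

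The difference between the strains in the response to the limiting nutrient was tested itself, as the N minus C difference in snf1 less that in the reference. At the low level 26 of 66 genes were called negative, against 10.8% of all genes, and 1 positive, against 8.74%. At the high level 44 were called negative, against 10.6%, and 1 positive, against 9.95%. The positive one was MRP8 at both levels, and the 65 others were all negative at both levels, called or not. Their median was -0.35 at the low level and -0.55 at the high level, while that of all genes was -0.04 at both. This contrast holds the same arrays as the strain comparisons above, so its direction is not separate evidence of them. The interaction was -0.54 ± 0.069 for MRPL13 at the low level and -0.62 ± 0.069 at the high level (adjusted p = 7.07e-06 and 1.31e-06). It was -0.42 ± 0.063 and -0.58 ± 0.063 for MRP49, -0.91 ± 0.10 for MRPS28 at the high level (adjusted p = 1.04e-06), and -1.25 ± 0.191 for MRP1 at the high level (adjusted p = 5.95e-05). For MRP8 it was 0.46 ± 0.124 and 0.48 ± 0.124 (adjusted p = 0.0108 and 0.00795). One reference array carries weight at the low level: without replicate 1 of the C-limited reference, 13 genes were called negative, and 26 in place of 40 were called higher in C-limited snf1. The shares of all genes called without that array are not given here.

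**Figure D4:**
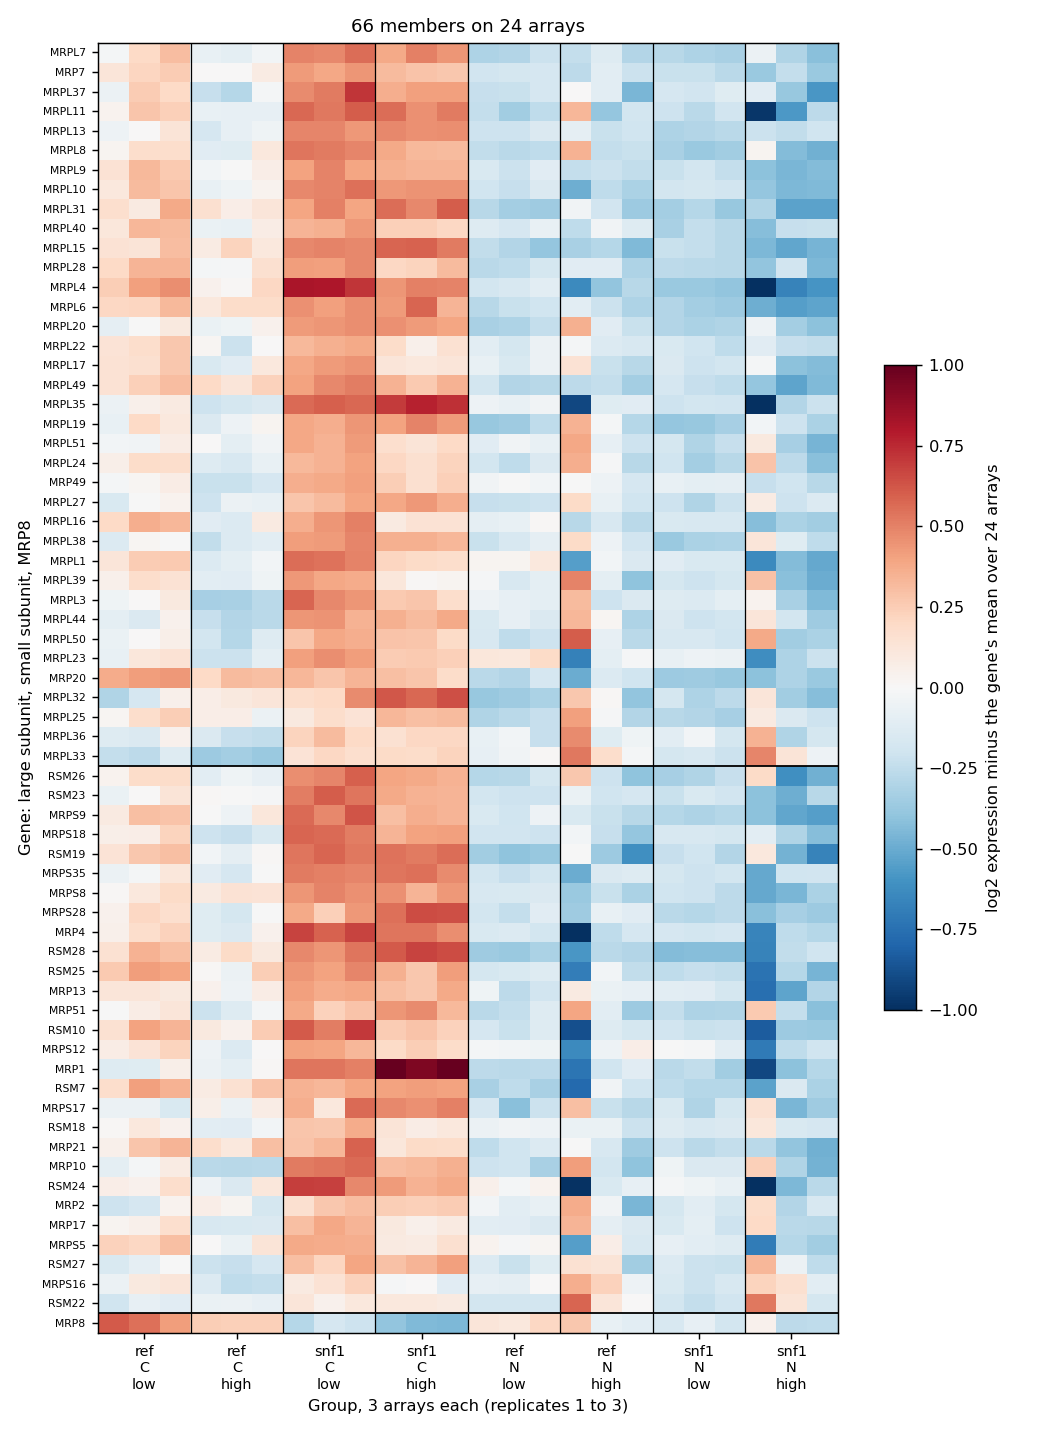
Each of the 66 genes (rows: large subunit, small subunit, MRP8) on each of the 24 arrays (columns, by group), as log2 expression less the gene's mean over all arrays; the colour scale saturates at 1 either way. The columns of C-limited snf1 cells are the highest for most rows, and replicate 1 of both N-limited groups at the high level differs from its group in many rows.

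Over the 8 groups, 61 of the 66 genes had their highest mean in C-limited snf1 cells, 44 at the low level and 17 at the high level. The lowest mean was in N-limited snf1 cells for 52 genes, 35 at the high level and 17 at the low level. The shares of all genes with these extremes were not taken, so neither count has a baseline. The range of a gene's group means had a median of 0.81 on the log2 scale over the 66 genes, from 0.39 for MRPS16 to 1.55 for MRP1, while the median over all genes was 0.54. It was 0.78 for the large and 0.82 for the small subunit. Pearson's r over the 8 group means, of each gene with the mean of the other members, describes how alike they were. Its median was 0.917 over the 65 genes, and 42 of them (64.6%) were over 0.9, against 107 of 5384 other genes (1.99%); the points share their arrays, so r is given as a description. MRPL13 had an r of 0.972 and MRPS28 of 0.953. The lowest values were those of RSM22 (0.160), MRPL33 (0.198), MRPS16 (0.220) and MRPL36 (0.690), and MRP8 had -0.251.

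RSM22 belongs to a family of methyltransferase-like proteins that in other species act in assembly of the small subunit. It read 7.03, 7.14 and 7.12 in the C-limited reference and 7.35, 7.27 and 7.34 in C-limited snf1 at the low level, with no overlap, and the difference of 0.22 ± 0.129 was not called. In 39.8% of all genes the snf1 arrays likewise lay above every reference array there. In N-limited cells at the high level RSM22 read 7.81, 7.35 and 7.23 in the reference and 7.76, 7.35 and 7.05 in snf1. The highest of each group was again replicate 1, and RSM22, MRPL33, MRPS16 and MRP10 were all highest on replicate 1 in both of these groups. MRPL35 and MRP1 were lowest on it: MRPL35 read 7.01, 7.80 and 7.80 in the reference and 6.83, 7.63 and 7.71 in snf1. The replicates of these groups thus spread over a range as wide as many of the differences between groups.

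The high level of inositol and choline was compared with the low level within each strain and limitation. In the C-limited reference 14 were called lower at the high level, against 6.96% of all genes, and none higher, against 7.85%, with a median of -0.19 over the 65. In the N-limited reference 6 were lower, against 14.9%, and 3 higher, against 16.6%. In C-limited snf1 9 were lower, against 13.2%, and 2 higher, against 10.2%. In N-limited snf1 18 were lower, against 17.7%, and 4 higher, against 19.5%. Lower calls covered 21.2% of the members in the C-limited reference, 9.09% in the N-limited reference, 13.6% in C-limited snf1 and 27.3% in N-limited snf1. The share was below that of all genes in the N-limited reference and near it in C-limited snf1. These shares depended on the fit. In the C-limited reference 34 of the 66 were called in either direction when the compared arrays were fitted alone, against 34.2% of all genes, 36 with replicates blocked, against 34.5%, and 43 without the 2 arrays of lowest 5' signal, against 48.1%. The C-limited snf1 counts were 40, 39 and 37 in the same fits, against 60.6%, 59.7% and 53.3% of all genes. Under N limitation they were 0, 0 and 8 in the reference, against 2.57%, 0.257% and 43.9%, and 3, 0 and 35 in snf1, against 13.5%, 0.184% and 52.0%. Leaving out arrays in turn gave 4 to 15 in the C-limited and 1 to 20 in the N-limited reference, and 5 to 11 in C-limited and 13 to 24 in N-limited snf1. MRPL1, MRPL4 and MRPL16 were called lower at the high level in all 4 pairs of groups, as were 98 of all genes (1.8%). MRPL16, the counterpart of bacterial L16, read 8.66, 8.82 and 8.79 at the low level and 8.35, 8.33 and 8.55 at the high level in the C-limited reference, a difference of -0.35 ± 0.061 (adjusted p = 0.0016). In C-limited snf1 MRPL16 read 8.83, 8.90 and 8.97 against 8.55, 8.60 and 8.60, a difference of -0.31 ± 0.061 (adjusted p = 0.00107). Its difference under N limitation was -0.18 ± 0.061 in the reference and -0.21 ± 0.061 in snf1. MRPL1, the counterpart of bacterial L1, was lower by between -0.29 and -0.39 in the 4 pairs. The 3' minus 5' difference was larger at the high level in every pair, and its part in these changes was not tested.

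MRPS28 and MRP13 were the members whose response to inositol and choline differed between the strains by the test of that difference. Under C limitation MRPS28 was lower at the high level in the reference by -0.24 ± 0.071 and higher in snf1 by 0.27 ± 0.071, and the interaction was 0.51 ± 0.10 (adjusted p = 0.00469); it was 1 of 66 called positive, against 1.85% of all genes, and none was called negative, against 2.29%. With limma, 6 of the 66 had an unadjusted p under 0.05, a count with no share of all genes to set beside it. MRP1 was higher at the high level in C-limited snf1 by 0.49 ± 0.135 (adjusted p = 0.0123), but its interaction of 0.48 ± 0.191 was not called (adjusted p = 0.248). Under N limitation MRP13 was lower at the high level in snf1 by -0.39 ± 0.083 (adjusted p = 0.00125) and differed by 0.15 ± 0.083 in the reference (adjusted p = 0.187). Its interaction was -0.54 ± 0.118 (adjusted p = 0.0167), 1 of 66 called negative against 1.03% of all genes, with none positive against 1.05%. At an unadjusted p under 0.05 there were 8 with limma, again with no share of all genes to set beside the count. MRP13 was not called without replicate 2 of the N-limited reference at the low level, nor in a fit of the compared arrays alone.

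Genes that act with the mitochondrial ribosome were taken as lists chosen by function. Their counts stand beside the shares of all genes, which for snf1 against reference under C limitation were 20.2% higher and 14.3% lower at the low level and 18% and 14.8% at the high level. Of 12 further mitochondrial ribosomal proteins with other symbols, 8 (66.7%) were called higher in C-limited snf1 at either level. Of the same 12, 11 were lower under N than under C limitation in snf1 at either level, against 15.3% and 22.1% of all genes. MNP1, the counterpart of bacterial L7/L12, was higher in snf1 by 0.54 ± 0.061 at the low level (adjusted p = 7.67e-07), and RML2, that of bacterial L2, by 0.48 ± 0.060 at the high level (adjusted p = 3.2e-06). Of 16 genes of translation factors and ribosome assembly, 9 (56.2%) were higher at the low level and 7 (43.8%) at the high level, and none lower. They included IFM1, the initiation factor gene, at 0.29 ± 0.053, and MRM1, a methyltransferase gene for the large ribosomal RNA, at 0.36 ± 0.077 at the low level. Of 17 genes of mitochondrial tRNA synthetases and the amidotransferase GatFAB, 11 (64.7%) and 14 (82.4%) were higher and none lower, with the methionyl synthetase gene MSM1 at 0.37 ± 0.045 and 0.52 ± 0.045. Of 16 activators, which each promote translation or stability of particular mitochondrial messages, 4 (25%) were higher and 1 lower at each level, near the share of all genes, at a median difference of 0.09 and 0.10.

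Beyond translation, 11 (55%) of 20 genes of protein import and chaperones were higher in C-limited snf1 at the low level and 7 (35%) at the high level, and none was lower. MAS1, a subunit gene of the protease that removes import signals, was higher by 0.33 ± 0.056 and 0.45 ± 0.056. Of 38 genes of the respiratory chain and ATP synthase, 10 (26.3%) were higher and 1 lower at the low level, and 8 (21.1%) and 1 at the high level, so the higher calls lay near the share of all genes. CYC1, the main cytochrome c gene, was higher in snf1 by 0.77 ± 0.057, whereas NDE2, an external NADH dehydrogenase gene, was lower by -1.13 ± 0.120 (adjusted p = 1.85e-09 and 3.11e-07). Of 13 tricarboxylic acid cycle genes, 4 (30.8%) were higher and 3 (23.1%) lower at the low level and 2 (15.4%) and 5 (38.5%) at the high level, with IDH2 at 1.07 ± 0.095 and CIT3 at -1.19 ± 0.105 at the low level. Of 128 cytosolic ribosomal protein genes 6 (4.69%) were higher and none lower at the low level, and 1 higher and 9 lower at the high level. Of 4 genes of mitochondrial transcription, RPM2, which encodes the protein of mitochondrial RNase P, was higher by 0.49 ± 0.079 at the low level and ABF2, which packages mitochondrial DNA, was lower by -0.35 ± 0.133.

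Between the strains in N-limited cells, 5.01% of all genes were lower in snf1 at the low level and 1.98% at the high level. None of the 12 other ribosomal proteins, 16 translation factors or 17 synthetases was called at the low level, and 16 of 38 respiratory chain genes and 5 of 13 tricarboxylic acid cycle genes were lower in snf1 and none higher. COX12, a cytochrome oxidase subunit gene, was lower by -0.43 ± 0.050 (adjusted p = 6.23e-06) and MDH1, the mitochondrial malate dehydrogenase gene, by -0.54 ± 0.051 (adjusted p = 5.54e-07). The respiratory chain list had a median of -0.41 at the low level, the tricarboxylic acid cycle list -0.35 and the 65 mitochondrial ribosomal protein genes -0.05. At the high level 3 respiratory chain genes, 2 tricarboxylic acid cycle genes and 3 translation factor genes were lower, and the medians were -0.19, -0.19 and, for the 65, -0.15. The difference between the lists was not tested at either level. A fit of the 6 low-level arrays with replicates blocked, which for these lists was chosen after seeing the data, called 24.3% of all genes higher and 26.7% lower. In it 5 of the 12 other ribosomal proteins, 4 translation factors and 2 synthetases were lower, as were 23 of the 66 genes. So were 37 of the 38 respiratory chain genes and 12 of the 13 of the tricarboxylic acid cycle. Called higher in that fit were 3 of the 66, 1 translation factor, 1 respiratory chain gene and 1 tricarboxylic acid cycle gene. Of 128 cytosolic ribosomal protein genes, 63 were higher and 1 lower.

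**Figure D5:**
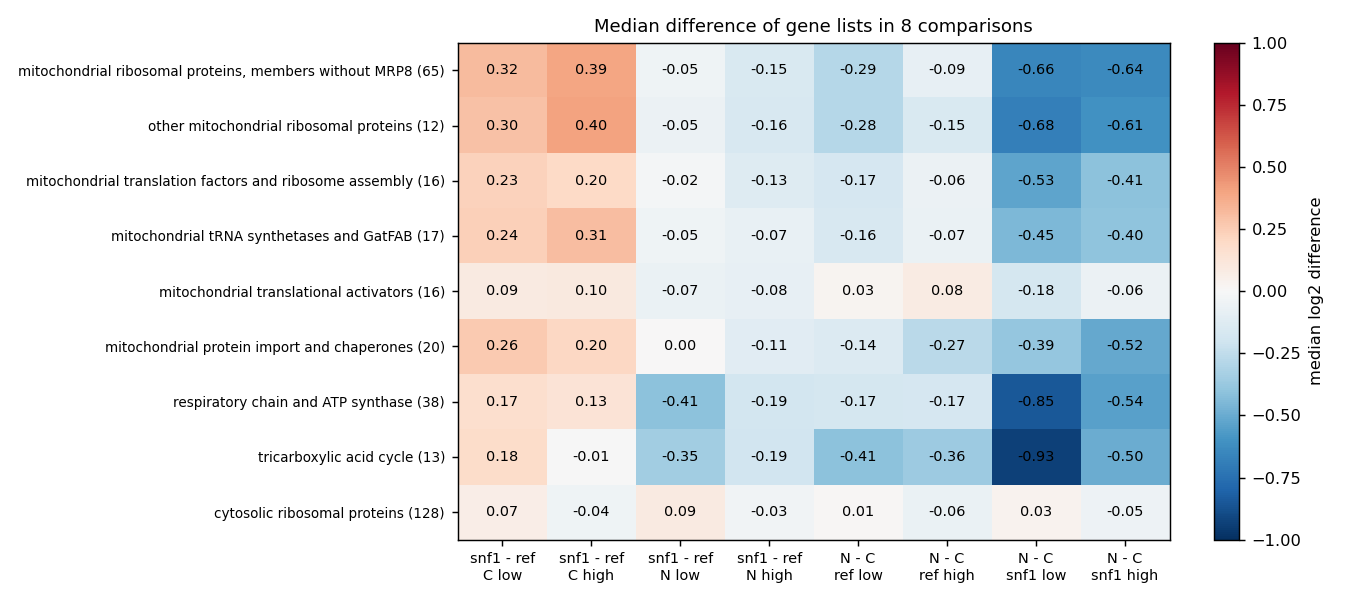
Median log2 difference of each gene list (rows, with the number of genes measured) in 8 comparisons (columns); red is higher and blue lower in the group named first. The mitochondrial ribosomal protein genes stand at 0.32 and 0.39 for snf1 against reference under C limitation, and the respiratory chain at -0.41 under N limitation at the low level, where the ribosomal protein genes stand at -0.05; at the high level these are -0.19 and -0.15.

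HAP4 encodes the activating subunit of the Hap complex, which drives genes of respiration. Its group means were 9.14 and 9.48 in the C-limited reference at the low and the high level and 9.58 and 9.50 in C-limited snf1. Under N limitation they were 8.89 and 9.31 in the reference and 8.16 and 8.71 in snf1. HAP4 was thus higher in C-limited snf1 at the low level, by 0.43 ± 0.068 (adjusted p = 4.2e-05), differed by 0.03 ± 0.068 at the high level, and was lower in N-limited snf1, by -0.74 ± 0.068 and -0.61 ± 0.068 (adjusted p = 3.45e-07 and 1.11e-05). PUF3 was not called between the strains in any of the 4 pairs, with differences from -0.03 to 0.15. Of the 6 genes of the Hap activators and Puf3, 1 was called higher and 2 lower in C-limited snf1 at the low level, and none and 1 at the high level. HAP1, a heme-responsive activator, was lower in C-limited snf1 by -1.07 ± 0.121 at the low level and by -0.85 ± 0.121 at the high level.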

How the data were processed

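Total RNA of 24 samples was hybridised to 24 arrays, 1 sample each. The deposited values are log2 expression of 10928 probe sets, summarised with PLIER per the submitters' processing notes; neither the background correction nor any normalization across arrays is described in the sources used here. Base 2 is assumed, from the range of 4.82 to 13.25, and every fold rests on it. Column medians lay between 5.93 and 6.00 and no scaling was added. Through the platform annotation and RefSeq gene identifiers 5498 probe sets were assigned to S. cerevisiae, and the one of highest mean per gene left 5449 genes. The dim level is the 95th percentile of the means of 1746 probe sets for another yeast.

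Groups follow the titles. With limma 3.58.1 (R 4.3.3; lmFit and eBayes) a mean per group was fitted to all 24 arrays (16 residual and 18.77 total degrees of freedom), giving 12 differences and 4 interactions. The steps were tested on simulated data. Members and gene lists were chosen with earlier results of these data known. The genes named are those called with the smallest adjusted p, up to 4 in each direction of a comparison, calls against the main direction, the widest and narrowest ranges, MRP8, MRP10 and RSM22, fixed genes such as HAP4, and up to 4 of each list and comparison. MRPL13 and MRPS28 under further comparisons, MRPL35 and MRP20 under C limitation, and the 3 genes lower in all inositol-choline pairs were named after their values were seen.

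Alternatives were quantile normalization, dim genes left out, the compared arrays alone, these with the replicate number as a block, leaving out the 2 arrays of lowest 5' signal or the 6 with conflicting labels, and each array in turn. Deviations of arrays with the same number from their group means had r above 0.1 for every number in 6 of the 28 possible group pairs. Of those pairs 3 are compared here. The r over genes was 0.901, 0.784 and 0.868 between the strains in N-limited cells at the high level, 0.165, 0.313 and 0.405 at the low level, and 0.173, 0.461 and 0.392 between N- and C-limited snf1 at the low level. These have the blocked count beside the result. VAR1 and YDR115W were not analysed here, nor was MRP35.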

Additional observations from a re-analysis of the deposited data

Results flagged for a closer look

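The response to the limiting nutrient differed between the strains by the test of the interaction itself. Of the 66 genes, 27 were called at the low level and 45 at the high level of inositol and choline. At the low level 26 were negative, against 10.8% of all genes, and 1 positive, against 8.74%. At the high level 44 were negative, against 10.6%, and 1 positive, against 9.95%. These counts depended on the fit, and a fit of the compared arrays alone called fewer at the high than at the low level. At the low level the N minus C difference in snf1 less that in the reference was -0.54 for MRPL13, -0.42 for MRP49, -0.52 for RSM23 and -0.49 for MRPS9, and 0.46 for MRP8. At the high level it was -0.58 for MRP49, -0.91 for MRPS28, -0.62 for MRPL13 and -0.53 for MRPL9, and 0.48 for MRP8.

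The response to inositol and choline differed between the strains by the same kind of test for 1 gene under C limitation, MRPS28 (0.51). Over all genes 1.85% were called positive there and 2.29% negative. Under N limitation it differed for 1 gene, MRP13 (-0.54), against 1.05% of all genes positive and 1.03% negative. Either call is 1.52% of the 66 genes, near the share of all genes. MRP13 was not called in a fit of the compared arrays alone.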

How the results depend on the processing

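None of 73 results on named genes changed direction under any alternative run; 50 of 405 values missed the threshold there, and 62 of 510 when arrays were left out in turn. Leaving out dim genes changed no call of a named gene.

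Counts below are of the 66 genes called in either direction, and those not given were within 1.5 times the value reported. The share of all genes called also moved with the fit. Unless stated it is not given beside the counts here, which then have no baseline. In the fit of the compared arrays alone they were 10 for N minus C in the reference at the high level (25 in the report), 22 and 0 for snf1 against reference under N limitation at the low and high level (1 and 6), and 61 and 27 for the strain by limitation interaction at the low and high level (27 and 45). For high minus low inositol and choline they were 34 and 0 in the reference under C and N limitation (14 and 9) and 40 and 3 in snf1 (11 and 22). The strain by inositol-choline interactions gave 7 under C and 0 under N limitation (1 and 1). The cause was not tested, though these fits take the spread from their own arrays.

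With the replicate number as a block in that fit, the counts were 7 for N minus C in the reference at the high level, 26 for snf1 against reference under N limitation at the low level, and 61 for the strain by limitation interaction at the low level. For inositol and choline they were 36 and 0 in the reference, 39 and 0 in snf1, and 8 and 0 for the interactions. The block changed no other count by over 1.5 times. For N minus C in the reference at the high level it called 9.62% of all genes higher and 9.3% lower. For snf1 against reference under N limitation at the low level these shares were 24.3% and 26.7%.

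Without the 2 arrays of lowest 5' signal the counts were 11 and 18 for snf1 against reference under N limitation, 43 for inositol and choline in the C-limited reference, 37 and 35 in snf1, 57 for the strain by limitation interaction at the low level and 8 for the strain by inositol-choline interaction under C limitation. Comparisons that use the 6 arrays with conflicting labels could not be computed without them. Quantile normalization gave 0 for snf1 against reference under N limitation at the low level.

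With arrays left out in turn, snf1 against reference ranged from 27 to 39 and from 37 to 46 under C limitation and from 0 to 0 and from 2 to 14 under N limitation, at the low and high level. N minus C ranged from 29 to 35 and 19 to 32 in the reference and from 59 to 61 and 54 to 62 in snf1. Inositol and choline ranged from 4 to 15 and 1 to 20 in the reference and from 5 to 11 and 13 to 24 in snf1. The strain by limitation interaction ranged from 14 to 30 and 38 to 54, and the strain by inositol-choline interaction from 1 to 1 under C and from 0 to 3 under N limitation. The 27 and the 14 were without replicate 1 of the C-limited reference at the low level. For snf1 against reference under N limitation at the high level, the count was 14 without reference replicate 1, 13 without snf1 replicate 1 and 2 without snf1 replicate 2. For inositol and choline in the C-limited reference it was 6 and 5 without low-level replicates 2 and 3, and 6 and 4 without high-level replicates 1 and 2. In the N-limited reference it was 3, 2 and 1 without low-level replicates 1, 2 and 3, and 1 and 20 without high-level replicates 1 and 3. In C-limited snf1 it was 7 and 6 without low-level replicates 2 and 3, and 7, 5 and 7 without high-level replicates 1, 2 and 3. In N-limited snf1 it was 13 and 14 without low-level replicates 1 and 2. The strain by inositol-choline interaction under N limitation gave 0 without low-level reference replicate 2 and 3 without high-level snf1 replicate 3. No member was dim, but the effect of background on the size of the differences was not tested. The wide spread of the N-limited arrays at the high level limits every comparison that uses them.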
